A study of Mus musculus with 4 samples.

Results

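The cholesterol and fatty acid synthesis genes are 32 genes chosen by name from the pathway, out of 39179 genes in the count tables. They comprise 8 enzymes that lead to and use mevalonate, 11 enzymes that turn farnesyl units into cholesterol and 7 genes of fatty acid synthesis. The other 6, called SREBP genes below, are those of the SREBP transcription factors (Srebf1 and Srebf2), Scap, Insig1, Insig2 and Stard4. All 32 were found and all 32 passed the filter on low counts. RNA was sequenced from mouse skin on the C57BL/6 background in 4 libraries, 2 of wild-type (WT) skin and 2 of lesional skin from Itch-/- mice, labelled Itch KO (the knockouts below). Itch encodes a ubiquitin ligase, and its loss is known for skin and lung inflammation with scratching. Inflammation is the phenotype given for each of the 4 samples, the WT ones too, with age, body site and knockout allele not given in the sources used here. The labels do not tie a group's libraries to separate animals, so each p-value rests only on the spread among these 4 libraries, which may be technical.

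Animal cells build cholesterol from acetyl-CoA through mevalonate, and build fatty acids from acetyl-CoA through malonyl-CoA. Both routes are switched on by SREBP factors, which the escort protein SCAP carries out of the endoplasmic reticulum when sterols are low and which the INSIG proteins hold back when sterols are high. In skin the epidermis needs cholesterol and fatty acids for its lipid barrier, and sebaceous glands and dermal fat are further sites of lipid synthesis.

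SREBP factors bind sterol response elements, usually with the CCAAT-box factor NF-Y nearby, so the members' promoters were searched for both on both strands. RefSeq promoter windows (GRCm38.p6, 250 bases before to 50 after a start) were found for 27 of the 32 genes (not for Fdps, Fdft1, Sqle, Stard4 and Fads1), in 36 windows. The sterol element TCACNCCAC was present in 1 of these 36 windows, that of Hmgcs1, against 1.24% of all 32851 windows. A looser form, TCANNCCA, which overlaps the first, was present in 6 of 36 against 15.7%. The E-box form TCACGTGA was present in 0 of 36 against 0.974%. The CCAAT box was present in 23 windows of 22 genes, 63.9% against 37.4% of all windows. The lines below show, in capitals, the sterol element of Hmgcs1, the looser form in Srebf2, and CCAAT boxes (read as ATTGG on the other strand) of Dhcr7, Sc5d and Ebp, the late sterol enzymes described further on. Each is written on the gene's strand.
Hmgcs1, chr13:119690205-119690231, plus strand: gtcaccgtcTCACCCCACttcccaggt
Srebf2, chr15:82147098-82147123, plus strand: gacgcaccaTCACCCCAtgagccgct
Dhcr7, chr7:143830120-143830142, plus strand: ctgccttcaCCAATcacaggacg
Dhcr7, chr7:143830156-143830178, plus strand: ccacttccgATTGGtcgtctgtg
Sc5d, chr9:42264311-42264333, minus strand: cggctgctgATTGGccggctgcc
Ebp, chrX:8193554-8193576, minus strand: cctgtactgATTGGttcgtcaga
The pair in Dhcr7 stands before an inner start of that gene. A match describes letters and is not evidence of binding.

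Reads assigned to genes numbered 15144957 to 16008351 per library. Itch had 1450 and 1634 counts in the WT pair and 185 and 184 in the Itch KO pair (log2 fold change -3.09, edgeR adjusted p = 0.0509), low in both libraries labelled Itch KO. WT replicate 1 stood apart, with a Pearson correlation of log2(CPM + 1) of 0.849 and 0.850 to the knockout libraries and 0.923 to WT replicate 2. WT replicate 2 correlated at 0.931 and 0.945 with the knockouts, and the knockouts at 0.983 with each other. Skeletal muscle markers (12 genes) summed to 18164 and 3010.5 CPM (read counts scaled to library size) in WT replicates 1 and 2 and to 1414 and 1202 in the knockouts. Genes of the mitochondrial genome summed to 23543 and 13468 CPM in WT and 10733 and 7654 CPM in the Itch KO libraries. Xist, made from the inactive X chromosome of females, stood at 1055 and 631 CPM in the WT pair and 0.947 and 0.892 in the Itch KO pair, so genotype and sex cannot be told apart. All 10 keratinocyte markers were detected in every library, and the label of skin holds.

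The 32 genes differed little between the genotypes, and the late sterol enzymes Dhcr7 and Sc5d, both lower in the knockouts, were the best separated. The median log2 fold change (knockout over WT) was -0.16 over the members and 0.0084 over all 16651 genes tested, and the median absolute value was 0.25 against 0.42, or 0.36 over the 10803 genes in the members' range of mean level. One member, Elovl6, had an absolute log2 fold change above 1, against 20.7% of all genes tested. By edgeR's quasi-likelihood test, 0 members passed an adjusted p of 0.05 in either direction, against 0.00601% of all genes. At an unadjusted p under 0.05, 0 members were higher, where 12% of all genes were, and 2 were lower, Sc5d and Dhcr7, where 10.9% of all genes were. DESeq2 called 0 members higher against 7.83% of all genes and 1 lower, Dhcr7, against 6.16%. For 3 members both knockouts exceeded both WT libraries (31.2% of all genes), for 9 they were below both (30%), and 12 of 32 thus had groups that did not overlap, against 61.2% of all genes. The 95% interval of the fold change lay within 2-fold either way for 18 of 32 members, against 36.6% of all genes and 52.6% of the genes in that range of level. The remaining 14 members had intervals that reached beyond 2-fold, so a difference of that size was not excluded for them.

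**Figure D1:**
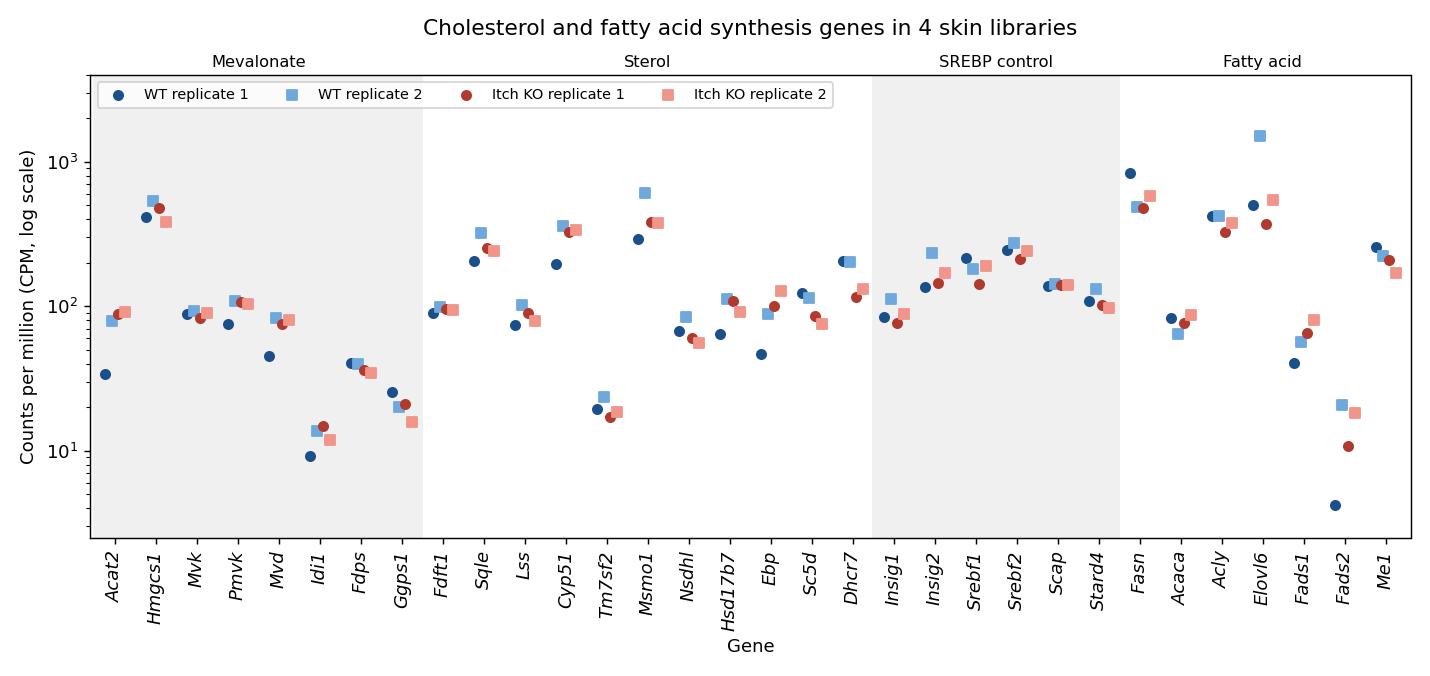
Levels of the 32 genes in CPM (vertical log axis) in each of the 4 libraries, with genes in pathway order along the horizontal axis and shading that separates the roles. The 4 points of most genes lie close together, while WT replicate 1 lies below the others for Acat2, Mvd and Ebp, and WT replicate 2 lies above them for Elovl6 and Msmo1.

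The members covered a wide range of levels. Per kilobase of exon, as a mean over the 4 libraries, Elovl6 was highest at 114 CPM per kilobase, followed by Hmgcs1 at 98.7, Acly at 73.4, Cyp51 at 68.9 and Msmo1 at 67.2. The lowest were Idi1 at 3.54, Fads2 at 4.10, Ggps1 at 4.36, Tm7sf2 at 4.45 and Acaca at 4.54. The order at the top was not firm: Elovl6 ran from 368 to 1516 CPM over the libraries, and in 3 of the 4 its level per kilobase was below the mean of Hmgcs1.

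The early enzymes of the mevalonate route showed no common direction, with 4 of 8 higher and 4 lower and a median log2 fold change of 0.063, which was -0.098 without WT replicate 1 and 0.28 without WT replicate 2. Acat2, the cytosolic thiolase that joins acetyl-CoA units, stood at 33.7 and 79.5 CPM in WT replicates 1 and 2 and at 88.2 and 91.0 in the knockouts. Both knockouts were above both WT libraries, with only WT replicate 1 far below (log2 fold change 0.66, SE 0.44, edgeR adjusted p = 0.405). Acat2 has a close copy, Acat3, with which it could share reads, so its counts are uncertain. Hmgcs1, which makes HMG-CoA, stood at 414 and 535 CPM in the WT pair and 479.9 and 384 in the Itch KO pair, and the groups overlapped. Mvk, the mevalonate kinase, stood at 88.7 and 92.3 against 82.6 and 90.0 CPM. Its interval of -0.46 to 0.32 on the log2 scale was among the narrowest of the list.

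The enzymes that follow mevalonate kinase mostly had 1 low library, WT replicate 1. Pmvk, the phosphomevalonate kinase, stood at 74.9 and 109.6 CPM in the WT pair and 107 and 104 in the Itch KO pair. Mvd, the decarboxylase that yields isopentenyl pyrophosphate, stood at 45.5 and 82.4 against 75.0 and 79.8 CPM. Idi1, which isomerises that unit, was low at 9.20 and 13.8 against 14.8 and 11.9 CPM. For these 3 genes WT replicate 2 lay within or next to the knockout values. Fdps, the farnesyl pyrophosphate synthase, stood at 40.5 and 39.8 CPM in the WT pair and 36.4 and 34.5 in the Itch KO pair, below both WT libraries by a small margin (log2 fold change -0.18, SE 0.16, edgeR adjusted p = 0.528). Ggps1, which makes geranylgeranyl pyrophosphate for protein prenylation, stood at 25.5 and 20.1 against 20.9 and 15.8 CPM, with overlap. Its exons overlap those of Arid4b on the opposite strand over 257 bases, and those of Fdps overlap the predicted gene Gm43738 on the same strand over 1124 bases, so both are uncertain.

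Entry into the sterol branch was close to level. Fdft1, the squalene synthase, stood at 89.9 and 98.5 CPM in the WT pair and 95.6 and 93.7 in the Itch KO pair (log2 fold change 0.0062, 95% interval -0.38 to 0.39), a value whose sign turned negative with library size scaling alone and with muscle, hair and sex-linked genes left out. Its exons overlap those of Ctsb on the opposite strand over 774 bases, and Ctsb had 11814 and 17130 counts in the WT pair and 30015 and 26491 in the Itch KO pair. The strand setting of the counting is not given in the sources used here, so Fdft1 is uncertain. The same caution holds for other members with overlaps on the opposite strand. Among them are Scap (5830462I19Rik, 985 bases), Lss (4930483K19Rik, 381), Cyp51 (Akap9, 166) and Srebf1 (Rai1, 109). Sqle, the squalene epoxidase and a rate-limiting step of this branch, stood at 206 and 320.5 against 251 and 240.1 CPM. Lss, which closes the ring to lanosterol, stood at 73.6 and 103 against 89.4 and 79.0 CPM. For both genes the knockouts lay between the WT libraries.

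Of the 5 genes that act on the sterol ring after lanosterol and before Ebp, 3 followed the same layout. Cyp51, the lanosterol demethylase, stood at 196 and 359 CPM in the WT pair and 325 and 336 in the Itch KO pair. Msmo1, the C-4 methylsterol oxidase, stood at 291 and 604 against 382 and 375 CPM. Hsd17b7, a sterol ketoreductase, stood at 63.8 and 113 against 109 and 91.1 CPM. In these 3 genes WT replicate 1 was lowest, WT replicate 2 was highest and the knockouts lay between them. Tm7sf2, a sterol C-14 reductase, was lower in both knockouts at 17.0 and 18.4 CPM against 19.5 and 23.5 in WT (edgeR adjusted p = 0.475), and its exons overlap Vps51 on the same strand over 532 bases, which makes it uncertain. Nsdhl, an X-linked sterol dehydrogenase of the same steps, was also lower in both knockouts, at 60.3 and 55.5 CPM against 66.9 and 84.6 (log2 fold change -0.39, SE 0.18, edgeR adjusted p = 0.289).

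The last 2 steps analysed, Sc5d and Dhcr7, had the smallest p-values among the members, and both genes were lower in the knockouts. Dhcr7 (ENSMUSG00000058454, GRCm38 chromosome 7, 143823145 to 143848410, plus strand) encodes the reductase that turns 7-dehydrocholesterol, the skin's vitamin D precursor, into cholesterol. It stood at 207 and 201 CPM in the WT pair and 116 and 131 in the Itch KO pair, and the WT libraries nearly coincided. Its log2 fold change was -0.73 (SE 0.15, 95% interval -1.13 to -0.32), with an unadjusted p = 0.00690 and an adjusted p = 0.113 by edgeR, and an adjusted p = 0.00384 by DESeq2. Sc5d (ENSMUSG00000032018, chromosome 9, 42251595 to 42264256, minus strand) encodes the desaturase that makes 7-dehydrocholesterol. It stood at 123 and 114 CPM in the WT pair and 85.8 and 75.6 in the Itch KO pair (log2 fold change -0.55, SE 0.16, unadjusted p = 0.0203, edgeR adjusted p = 0.160, DESeq2 adjusted p = 0.0686). For both genes both knockouts lay below both WT libraries, so fits without 1 library had to keep that sign, and only their size is described. Against WT replicate 1 and WT replicate 2 taken alone, the log2 fold change of Dhcr7 was -0.74 and -0.71, and that of Sc5d was -0.60 and -0.50. Without knockout replicate 1 and without knockout replicate 2, the log2 fold changes were -0.64 and -0.82 for Dhcr7 and -0.65 and -0.46 for Sc5d. Neither gene had an unadjusted p under 0.05 in these fits (edgeR adjusted p of Dhcr7 = 0.661 and 0.595), where 0 of all genes passed adjustment and 1432 and 1501 had an unadjusted p under 0.05.

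Ebp, the sterol isomerase that acts just before Sc5d, went the other way. The gene (ENSMUSG00000031168, X chromosome, 8185329 to 8193512, minus strand) stood at 46.7 and 88.1 CPM in the WT pair and 101 and 127 in the Itch KO pair. Both knockouts were above both WT libraries (log2 fold change 0.75, SE 0.36, edgeR adjusted p = 0.285), by 1.29 on the log2 scale against WT replicate 1 and by 0.36 against WT replicate 2. Ebp and Nsdhl are both X-linked, and neither had an unadjusted p under 0.05 by edgeR (0.0949 and 0.0982). The libraries also differed in Xist, so genotype and sex cannot be told apart for these genes.

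**Figure D2:**
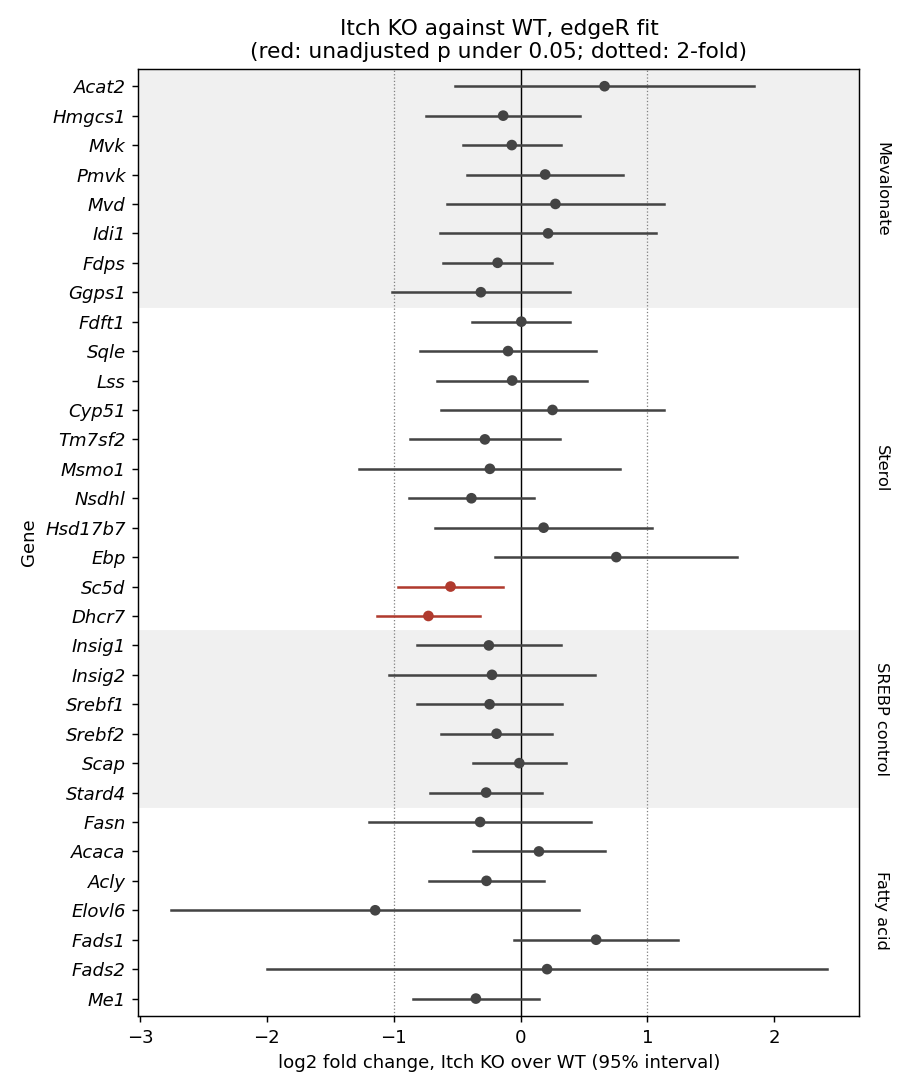
Log2 fold change of knockout over WT for the 32 genes (horizontal axis, points) with 95% intervals from the edgeR fit (lines), genes in pathway order down the vertical axis, dotted lines at 2-fold. Sc5d and Dhcr7, in red, are the 2 members with an unadjusted p under 0.05, and the widest intervals belong to Elovl6 and Fads2.

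Some keratinocyte, sebocyte and adipocyte markers were lower in the same libraries as Dhcr7 and Sc5d. Over all genes tested, 30% had both knockouts below both WT libraries and 31.2% had both above. Of 10 keratinocyte markers, 6 were below and 1 was above. At an unadjusted p under 0.05 by edgeR, 5 were lower (10.9% of all genes) and 1 was higher (12%). The higher one was Krt14, at 1617 and 1888 CPM in the WT pair and 2979 and 3475 in the Itch KO pair. Its log2 fold change was 0.88 (edgeR adjusted p = 0.136, DESeq2 adjusted p = 0.00162). Krt10, a keratin of differentiating epidermis, stood at 4274 and 4128 CPM in the WT pair and 2331 and 2756 in the Itch KO pair, Krt1 at 1818 and 3729.5 against 2735 and 3777, and Krt5, a basal keratin, at 2919.8 and 2848 against 2845 and 2935. The 10 markers summed to 17908 and 17447 CPM in the WT pair and 13985 and 16035 in the Itch KO pair. Fibroblast markers (8 genes, Col3a1 the highest at 553 and 937 against 5169 and 4381 CPM) summed to 2322 and 3549 against 14336 and 12993 CPM, with 8 of 8 above. Macrophage markers summed to 409.9 and 422 against 3279.8 and 2267 CPM, with 9 of 10 above (Lyz2 at 188 and 188 against 1032 and 573). Neutrophil markers (8 genes, 7 tested and all 7 above) summed to 9.73 and 32.2 against 2033 and 859.9 CPM. Ly6g, the defining surface marker, had 0 counts in both WT libraries and Ngp had 0 in WT replicate 1. A gene near 0 counts in both WT libraries can pass the filter on low counts only through the knockouts. For such a gene being above was fixed in advance, so the count of 7 is only a description. Stress and early response genes (6 genes, 4 above, Egr1 at 65.2 and 117 against 220.1 and 198 CPM) summed to 335 and 390.3 against 730.4 and 684. Of 12 sebocyte markers, 4 were below both WT libraries in both knockouts (30% of all genes) and 0 above (31.2%). The count below was thus near the share of all genes. DESeq2 called 2 lower (6.16% of all genes). These were Acsbg1, an acyl-CoA synthetase, at 397 and 394 CPM against 149 and 134 (log2 fold change -1.48, edgeR adjusted p = 0.0603, DESeq2 adjusted p = 4.88e-12), and Awat2, a wax synthase, at 47.2 and 72.5 against 7.45 and 20.9 (-2.08, edgeR adjusted p = 0.160, DESeq2 adjusted p = 0.00433). Over the 12 sebocyte markers, 8 log2 fold changes were below 0 and 4 above, the highest at 0.81. Awat1, on the same list as Awat2, was among those above 0. It stood at 36.5 and 143 CPM in the WT pair and 139 and 121 in the Itch KO pair (0.53), with overlap. The WT libraries nearly coincided for Acsbg1, while their median absolute log2 difference over the 12 markers was 1.51. Of 10 adipocyte markers, 3 were below, as were 30% of all genes, and 0 above. The 3 were Adipoq at 775 and 333 against 287 and 271 CPM, Plin1 at 279.5 and 88.5 against 61.9 and 79.5 and Lep at 165 and 68.8 against 16.3 and 42.6. Their log2 fold changes were -0.99, -1.38 and -1.99. The groups overlapped for the other 7 adipocyte markers. Over the 10, 8 log2 fold changes were below 0 and 2 above, the highest 0.37 for Fabp4. In bulk skin, fewer cells of a type and less RNA per cell cannot be told apart, and the part of these shifts in the values of Dhcr7 and Sc5d was not tested.

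The genes of the SREBP machinery lay within a narrow range, with a median log2 fold change of -0.23 and the 6 values running from -0.27 to -0.0095. Both knockouts were above both WT libraries for 0 of 6 (31.2% of all genes). They were below both for 2 of 6, near the 30% of all genes. Srebf2, the factor that mainly drives cholesterol genes, stood at 246 and 272 CPM in the WT pair and 212 and 243 in the Itch KO pair, where the nearest values of the groups almost touched. Srebf1, whose SREBP-1 products mainly drive fatty acid genes, stood at 214 and 180.5 against 143 and 191 CPM, with overlap. Scap, the escort protein, stood at 138 and 144 against 139.7 and 140.2 CPM. It was the steadiest gene of the list, with a 95% interval of -0.38 to 0.36 on the log2 scale. Its log2 fold change of -0.0095 was 0.016 without the filter on low counts. The overlap of Scap with another gene, given above, leaves it uncertain as well.

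Insig1, itself an SREBP target that retains SCAP, stood at 83.7 and 112 CPM in the WT pair and 76.5 and 88.6 in the Itch KO pair. Insig2, its partner with the same retaining role, stood at 137 and 232 against 145 and 171 CPM. Both INSIG genes overlapped between groups, with WT replicate 2 highest. Stard4, which carries cholesterol between membranes, was lower in both knockouts at 102 and 97.0 CPM against 109 and 131 in WT (log2 fold change -0.27, SE 0.17, edgeR adjusted p = 0.376). Intervals for 5 of these 6 genes lay within 2-fold, the exception being Insig2 (-1.04 to 0.58).

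Fatty acid genes held the widest gaps between libraries of the same genotype, in Elovl6 and Fads2. Elovl6 (ENSMUSG00000041220, chromosome 3, 129532355 to 129638495, plus strand), which lengthens palmitate to stearate, stood at 500.1 and 1516 CPM in the WT pair and 368 and 543 in the Itch KO pair. WT replicate 2 alone was high, and the other 3 libraries lay together. The log2 fold change of -1.15 (SE 0.60, edgeR adjusted p = 0.319) was -0.13 against WT replicate 1 (adjusted p = 0.738) and -1.74 against WT replicate 2 (adjusted p = 0.0260). Fads2, the rate-limiting desaturase of polyunsaturated fatty acids, stood at 4.20 and 20.8 CPM in the WT pair and 10.9 and 18.1 in the Itch KO pair, a 4.96-fold difference between the WT libraries. Fads1, the desaturase that acts after it, was above both WT libraries in both knockouts, at 65.1 and 80.9 CPM against 40.2 and 56.4 (log2 fold change 0.60, SE 0.24, edgeR adjusted p = 0.241).

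The enzymes that feed and run fatty acid synthase differed less. Acly, which supplies cytosolic acetyl-CoA, stood at 425 and 422 CPM in the WT pair and 326 and 377 in the Itch KO pair, lower in both (edgeR adjusted p = 0.384). Acaca, the acetyl-CoA carboxylase that commits carbon to fatty acids, stood at 82.8 and 64.5 against 76.0 and 86.8 CPM. Fasn, the synthase itself, stood at 839 and 484 against 477 and 584 CPM, with WT replicate 1 alone high. Me1, a malic enzyme that supplies NADPH, was lower in both knockouts at 208 and 169 CPM against 257 and 224 in WT (edgeR adjusted p = 0.323).

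A single WT library often set the apparent direction. WT replicate 1 was the lowest of the 4 libraries for 15 of 32 members, against 34.1% of all genes tested, and for 11 of the 19 cholesterol enzymes. It was the highest for 8 members, against 38.4% of all genes. These counts were chosen after the values were seen. Among the cholesterol enzymes, WT replicate 2 exceeded WT replicate 1 by 2.36-fold for Acat2, 2.07-fold for Msmo1, 1.89-fold for Ebp and 1.83-fold for Cyp51, whereas it was 0.974 of WT replicate 1 for Dhcr7. The median absolute log2 difference between the WT libraries was 0.39 over the members and 0.34 over all genes tested, and that between the knockout libraries was 0.19 and 0.18.

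With WT replicate 1 left out, the knockouts lay below WT replicate 2 for 24 of 32 members, against 39.4% of all genes tested in that fit, and above it for 4, against 41.8%. In that fit 9 members were lower at an unadjusted p under 0.05 (9.52% of all genes were) and 0 were higher (14.2%), and Elovl6 alone passed an edgeR adjusted p of 0.05 as lower (2.17% of all genes did), with 0 higher (5.52%). With WT replicate 2 left out, the knockouts lay above WT replicate 1 for 15 of 32 members, against 44.5% of all genes, and below it for 12, against 44.1%. Then 7 members passed the adjusted threshold as higher (15.3% of all genes), namely Acat2, Mvd, Cyp51, Hsd17b7, Ebp, Fads1 and Fads2, and 3 as lower (15.3%), namely Sc5d, Dhcr7 and Fasn. At an unadjusted p under 0.05 these counts were 8 higher (22.2% of all genes) and 4 lower (21.7%). In both fits the lone WT library is assumed to vary like the knockouts. With knockout replicate 1 left out, 0 members were higher (5.81% of all genes) and 0 lower (2.48%) by the unadjusted p. With knockout replicate 2 left out, 0 were higher (6.84%) and 0 lower (1.83%). Without knockout replicate 1 the remaining knockout lay above both WT libraries for 4 members (38.9% of all genes) and below for 11 (38.9%), and without knockout replicate 2 for 4 (36.9%) and 14 (37.3%). The median log2 fold change of the 11 sterol enzymes was -0.39 against WT replicate 2 and 0.20 against WT replicate 1.

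**Figure D3:**
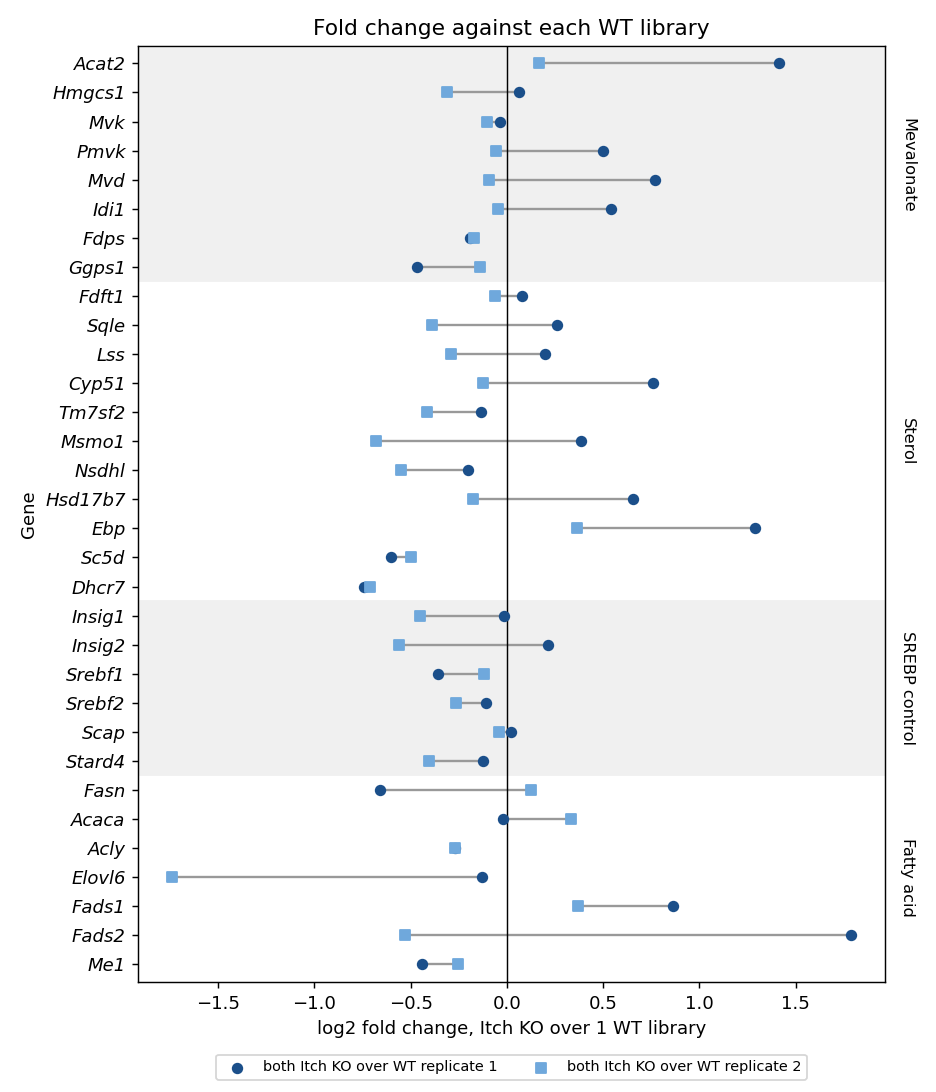
Log2 fold change of the 2 knockout libraries over WT replicate 1 (dark circles) and over WT replicate 2 (light squares), from the edgeR fits with the other WT library left out, genes in pathway order down the vertical axis. Lines cross 0 for Cyp51, Msmo1 and Fasn, while both points of Dhcr7 and Sc5d lie below 0 and both points of Ebp, Acat2 and Fads1 lie above it.

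Sebocyte and adipocyte markers differed between the WT libraries as well. The 12 sebocyte markers, all detected in every library, summed to 1838 and 4635 CPM in WT replicates 1 and 2 and to 2800.5 and 2878 in the knockouts, and 8 of 12 were lowest in WT replicate 1. Krt79, a keratin of the sebaceous duct, stood at 600.3 and 1924 CPM in the WT pair and 1069 and 1286 in the Itch KO pair, and Fa2h, a fatty acid hydroxylase, at 152 and 674 against 350.5 and 363. Far2, which makes fatty alcohols for wax, stood at 202 and 544 against 278 and 282. The 19 cholesterol enzymes summed to 2115 and 3081 CPM in the WT pair and 2537 and 2433 in the Itch KO pair, so WT replicate 1 was lowest and WT replicate 2 highest in both sums.

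The 10 adipocyte markers, all detected in every library, ran the other way between the WT libraries, at 6159 and 3175 CPM in the WT pair and 3944 and 4021 in the Itch KO pair, and 9 of 10 were highest in WT replicate 1. Cfd, the adipokine adipsin, stood at 1576 and 922 CPM in the WT pair and 1058 and 1367 in the Itch KO pair, Fabp4 at 974 and 668 against 1194 and 932, and Lpl, a lipoprotein lipase, at 1284 and 571 against 699 and 619. Fasn, at 839 and 484 against 477 and 584 CPM, was also highest in WT replicate 1. Hair shaft markers (11 genes, Krt35 the highest at 1.73 and 337 against 245 and 393 CPM) summed to 23.3 and 1205 CPM in the WT pair and 2162 and 1875 in the Itch KO pair. The part of these cell markers in the members' values was not tested.

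**Figure D4:**
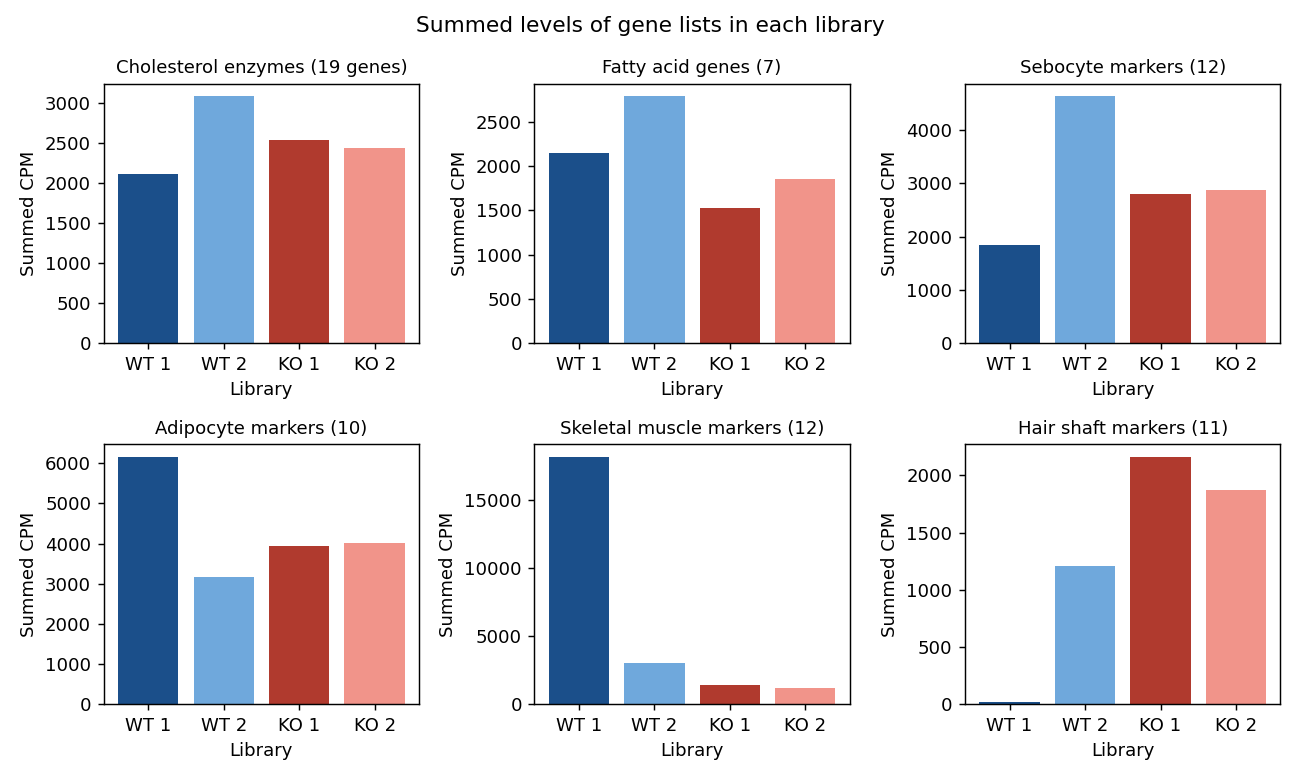
Summed CPM (vertical axes, from 0) of the 19 cholesterol enzymes, the 7 fatty acid genes and 4 lists of cell markers in each library (bars, 1 per library). WT replicate 1 is lowest for cholesterol enzymes, sebocyte and hair shaft markers and highest for adipocyte and skeletal muscle markers.

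Other genes of lipid synthesis had the same mixed layout. Of 15 lipogenic and NADPH-supplying genes outside the members, 0 passed adjustment by edgeR or DESeq2 (0.00601% and 14% of all genes did). Both knockouts were above both WT libraries for 3 (31.2% of all genes) and below both for 4 (30%). At an unadjusted p under 0.05, 1 was higher (12% of all genes) and 2 were lower (10.9%). The median log2 fold change was -0.087. Acss2, which makes acetyl-CoA from acetate, stood at 59.1 and 66.5 CPM in the WT pair and 25.6 and 42.5 in the Itch KO pair (log2 fold change -0.88, SE 0.29, edgeR adjusted p = 0.193). Elovl5, an elongase of polyunsaturated fatty acids, stood at 204 and 213 against 138 and 163 CPM (edgeR adjusted p = 0.202). Both were lower in both knockouts. Pgd, an NADPH-supplying enzyme of the pentose phosphate pathway, stood at 137 and 173 against 217 and 220.2 CPM (edgeR adjusted p = 0.213), and Slc25a1, the mitochondrial citrate exporter, at 148 and 179 against 195 and 231 CPM (edgeR adjusted p = 0.298). Both were higher in both knockouts.

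Of 13 genes of SREBP processing and sterol disposal, 0 passed adjustment by edgeR and 1, Abcg1, by DESeq2 as higher (7.83% of all genes). Both knockouts were above both WT libraries for 3 (31.2% of all genes) and below both for 5 (30%). At an unadjusted p under 0.05, 1 was higher (12% of all genes) and 0 were lower (10.9%). The median log2 fold change was -0.25. Abcg1, a cholesterol exporter that liver X receptors switch on, stood at 29.3 and 28.9 CPM in the WT pair and 61.1 and 45.7 in the Itch KO pair (log2 fold change 0.88, SE 0.21, edgeR adjusted p = 0.134, DESeq2 adjusted p = 0.0243). Macrophages are known to make this exporter, and the macrophage markers given above were also higher in both knockouts; their part in the value of Abcg1 was not tested. Mbtps1, the first protease that cuts SREBP, stood at 196 and 191 against 157 and 149 CPM. Erlin1 and Erlin2, membrane proteins that restrain SREBP, stood at 123 and 114 against 92.4 and 95.4 and at 123 and 104 against 88.4 and 83.8 CPM. These 3 genes were lower in both knockouts, with edgeR adjusted p = 0.248, 0.254 and 0.240.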

How the data were processed

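The authors deposited raw read counts per Ensembl gene, 1 table per library. HTSeq 0.6.1, SAMtools 0.1.19, TopHat2 and CASAVA 1.8.2 with build mm10 (GRCm38) are named per the submitters' processing notes, with annotation release and strand setting not given in the sources used here. The 5 counter lines that name no gene held 10.4% to 12.1% of reads and were left out. Symbols, coordinates and exon lengths came from GENCODE vM21 (GRCm38), which named 37693 of 39179 identifiers.

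Groups came from the sample titles. In R 4.3.3, edgeR 4.0.16 kept 16651 genes (filterByExpr, minimum count 10), scaled libraries by TMM and compared 2 knockout with 2 WT libraries by the quasi-likelihood F test (legacy and robust options, two-sided) with Benjamini-Hochberg adjustment over all genes at 0.05. The biological coefficient of variation was 0.341. CPM values use TMM-scaled library sizes, and the standard error is the fold change over the root of F, with 95% intervals from the t distribution. DESeq2 1.42.0, limma-voom 3.58.1, other scalings, no filter, a replicate block and leaving out each library were alternatives. The procedure was tested on simulated counts. A count of 0 allows up to 0.198 CPM (floor of 3 counts), for counting error only.

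The members and lists were chosen with earlier results of these data known. All members are named; from each related list the 4 genes with the smallest p, and from each marker list up to 3 with the highest mean CPM, not all of which are printed. Acat3, Arid4b, Gm43738, Ctsb, Vps51, 5830462I19Rik, 4930483K19Rik, Akap9 and Rai1 were named for shared sequence or overlap. Krt14, Ly6g, Ngp, Eif2s3y, Acsbg1, Awat1, Awat2, Adipoq, Plin1 and Lep were named after their values were seen. Motif counts are descriptions.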

Additional observations from a re-analysis of the deposited data

How the results depend on the processing

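Over all genes edgeR called 1; DESeq2 called 2329, limma-voom 0, no filter on low counts 488, muscle, hair and sex-linked genes left out 0 (the called gene, Eif2s3y, is sex-linked), and leaving out single libraries 0 to 5320: 1317 without WT replicate 1, 5320 without WT replicate 2 and 0 without either knockout library. Members called numbered 0, with DESeq2 1 (Dhcr7), and 0 to 10 with libraries left out: 10 without WT replicate 2 and 1 without WT replicate 1. Members at an unadjusted p under 0.05 with libraries left out numbered 0 to 8 higher and 0 to 9 lower. Members with both knockouts above WT numbered 3 under the other scalings or with no filter and 4 to 15 with libraries left out; those below numbered 8 to 11 under these and 11 to 24 with libraries left out, where 36.9% to 44.5% of all genes were above and 37.3% to 44.1% below. The median log2 fold change with libraries left out ran from -0.39 to 0.20 for sterol enzymes and -0.098 to 0.28 for mevalonate enzymes. It ran from -0.25 to -0.13 for fatty acid genes, -0.33 to -0.063 for SREBP genes and, over all members, from -0.21 to 0.0041. The cause of these shifts was not tested.

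Among single members, 220 of 224 values with all libraries kept their direction and side of the threshold. The exceptions were Dhcr7, which passed in DESeq2 (adjusted p = 0.00384), Scap without the filter (log2 fold change 0.016), and Fdft1 with library size alone (-0.027) and with muscle, hair and sex-linked genes left out (-0.033). Leaving out a library added 11 calls and turned 19 member values to the other sign, in 15 members. Their log2 fold changes ran, over the fits without 1 library, as follows: Hmgcs1 -0.32 to 0.064, Pmvk -0.058 to 0.50, Mvd -0.094 to 0.77, Idi1 -0.048 to 0.54, Fdft1 -0.062 to 0.078, Sqle -0.39 to 0.26, Lss -0.29 to 0.20, Cyp51 -0.12 to 0.76, Msmo1 -0.68 to 0.38, Hsd17b7 -0.17 to 0.65, Insig2 -0.56 to 0.21, Scap -0.042 to 0.024, Fasn -0.66 to 0.13, Acaca -0.019 to 0.33 and Fads2 -0.53 to 1.79.

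Replicate numbers are shared by the genotypes in the labels, and deviations of same-numbered libraries correlated at 0.186 across genes, and 2 pairs are too few to settle whether the numbers pair the libraries, which are treated here as unpaired. With the replicate block edgeR called 0 genes and 0 members, with 3998 genes at an unadjusted p under 0.05, and 2 members higher (Ebp and Fads1) and 2 lower (Sc5d and Dhcr7) at that level.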
